A study of Mus musculus with 12 samples.

Results

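The 37 genes described here encode the proteins that bring glucose into heart muscle, split it to pyruvate, exchange pyruvate with lactate, pass pyruvate into the mitochondrion for oxidation, and release glucose units from glycogen. They were picked by gene symbol from the deposited table, where all 37 were found among 17379 genes. All 37 also passed the filter on low counts, which left 13849 genes for testing. Hearts of 12 mice, each 6 months old, were sequenced for mRNA, with 3 in each of 4 groups. Compound mice carry the HRCS96A mutation in the heterozygous state together with the MYBPC3Δ25bp deletion in the homozygous state, MYBPC3 deletion mice are homozygous for the deletion alone, HRC variant mice are heterozygous for HRCS96A alone, and nontransgenic mice are labelled C57BL/WT. HRC binds calcium inside the sarcoplasmic reticulum, MYBPC3 is part of the thick filament, and neither belongs to glucose metabolism. All groups share the C57BL name in their genotype label, and the sources used here name no promoter for a transgene. The compound and HRC variant hearts all came from females, whereas the MYBPC3 deletion and nontransgenic groups each held males as replicates 1 and 2 and a female as replicate 3. The labels do not say whether replicates share a litter or a preparation, so all p-values refer to the spread among these samples only, which may in part be technical.

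Glucose enters a heart cell through transporters, is trapped by hexokinase, and is committed to glycolysis by phosphofructokinase, whose activity is tuned by fructose 2,6-bisphosphate. The lower part of the pathway yields pyruvate, which is reduced to lactate or carried into the mitochondrion, where pyruvate dehydrogenase feeds the citric acid cycle. Glycogen phosphorylase, switched on by phosphorylase kinase, adds glucose phosphate from the glycogen store. The healthy adult heart takes most of its energy from fatty acids, and a shift towards glucose is a known feature of overloaded and hypertrophied hearts. Several steps are served by paired enzymes from separate genes, one typical of striated muscle and one found in many tissues.

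The 250 bases before the transcription start are shown for Pgam1, the phosphoglycerate mutase gene whose levels separated the libraries by MYBPC3 genotype, for its muscle partner Pgam2, and for the phosphofructokinase subunit Pfkl, which had the smallest p in MYBPC3 deletion against nontransgenic hearts. The sequences are from RefSeq for GRCm38.p6, read 5′ to 3′ on the strand of the gene, and capitals mark a match to one of the searched motifs. Pgam1 lies on the plus strand (chr19:41911621-41911870), Pgam2 on the minus strand (chr11:5803797-5804046, inside the deposited extent of that gene) and Pfkl on the minus strand (chr10:78009808-78010057).
Pgam1: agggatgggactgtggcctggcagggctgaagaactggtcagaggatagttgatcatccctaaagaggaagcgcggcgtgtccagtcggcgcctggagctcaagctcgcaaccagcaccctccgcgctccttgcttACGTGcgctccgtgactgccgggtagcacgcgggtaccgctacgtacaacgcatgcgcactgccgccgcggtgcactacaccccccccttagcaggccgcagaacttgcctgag
Pgam2: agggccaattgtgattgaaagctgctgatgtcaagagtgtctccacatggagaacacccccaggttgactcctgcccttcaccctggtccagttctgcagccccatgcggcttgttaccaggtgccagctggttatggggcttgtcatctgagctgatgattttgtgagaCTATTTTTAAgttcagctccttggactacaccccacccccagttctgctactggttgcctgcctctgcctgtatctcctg
Pfkl: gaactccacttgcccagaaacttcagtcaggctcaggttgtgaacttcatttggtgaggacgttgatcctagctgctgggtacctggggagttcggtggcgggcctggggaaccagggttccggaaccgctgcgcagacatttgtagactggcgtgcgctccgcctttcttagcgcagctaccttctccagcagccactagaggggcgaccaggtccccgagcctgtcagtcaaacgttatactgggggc
ACGTG, one form of the core of the site that hypoxia-inducible factors bind, was searched on both strands and starts 114 bases before the Pgam1 start. Other forms of that core were not searched. The MEF2 consensus, bound by the muscle factors of that name, starts 80 bases before the Pgam2 start. No searched motif was found in the Pfkl stretch. The Pgam1 stretch holds 22 CpG pairs, Pgam2 holds 1 and Pfkl holds 13. Promoter entries were matched for 35 of the 37 genes, with 53 promoters between them, and Slc2a4 and Pdp1 had no entry. ACGTG was present in 32.1% of these 53 promoters, which belong to 14 genes, against 16.6% of all 32851 promoters of the same length. CACGTG, an E-box that contains ACGTG within it, was present in 9.43% against 6.02%. The MEF2 consensus was present in 3.77%, which are single promoters of Pfkfb1 and Pgam2, against 2.92%. These matches describe letters only.

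The labelled tissue was checked first. All 10 cardiomyocyte markers were detected in every library, and their summed level was 68177 to 101504 in counts-per-million units (CPM, scaled by the trimmed mean of M values). Total counts ran from 15615182 to 20581197 per library, and the 37 genes had between 167 reads (Pfkfb1, in its lowest library) and 214704 reads (Gapdh, in its highest). The summed level of 10 atrial markers was 364 to 707 CPM in compound hearts, 3976 to 6865 in MYBPC3 deletion hearts, 412 to 9540 in HRC variant hearts and 3857 to 9784 in nontransgenic hearts. The library at 412 is HRC variant replicate 3, so atrial RNA was scarce in all compound libraries and in that one. Of the atrial markers, the atrial ligand gene Bmp10 was at 0 in 1 library and Myl7, an atrial myosin light chain, ran from 0.998 to 1349 CPM. Of 11 skeletal muscle markers in the table, the summed level was 2891 to 2995 CPM in compound hearts, 2458 to 4161 in MYBPC3 deletion hearts, 2588 to 2997 in HRC variant hearts and 2792 to 5329 in nontransgenic hearts. Nearly all of that sum was Ckm and Acta1, which heart muscle also expresses, while the fast skeletal myosin genes Myh1 and Myh2 never exceeded 0.297 and 0.111 CPM. In bulk heart RNA, fewer cells of a type and less RNA per cell cannot be told apart.

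Glucose entry was dominated by the insulin-responsive transporter. Per length, Slc2a4 averaged 388 in transcripts-per-million units (TPM, adjusted for length by the authors) over the 12 libraries and Slc2a1, the basal transporter, 19.6 TPM. Slc2a4 made up 93.3% to 96.5% of their summed TPM. Slc2a1 had 22.7, 25.6 and 33.6 CPM in compound hearts, 24.1, 34.3 and 33.3 in MYBPC3 deletion hearts, 36.2, 24.3 and 24.1 in HRC variant hearts and 22.0, 31.8 and 41.6 in nontransgenic hearts. These values overlapped between all groups. Slc2a4 had 611, 617 and 709.6 CPM in compound hearts, 533, 540.2 and 584 in MYBPC3 deletion hearts, 503, 573 and 664 in HRC variant hearts and 595, 559 and 647 in nontransgenic hearts. Its 3 compound values all lay above the 3 MYBPC3 deletion values, and all other pairs of groups overlapped.

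Hexokinase traps glucose as glucose 6-phosphate, and the hearts expressed both main forms at similar TPM levels. Hk1 (gene 15275; chromosome 10, 62268855 to 62379916, as deposited for GRCm38.p6 here and for the genes that follow), the form found in most tissues, averaged 123 TPM, and Hk2 (gene 15277; chromosome 6, 82725023 to 82774454), the insulin-regulated form of heart, muscle and fat, 83.0 TPM. Hk1 had 285, 251 and 282 CPM in compound hearts, 217, 215 and 280.2 in MYBPC3 deletion hearts, 286, 268 and 318 in HRC variant hearts and 281, 258 and 353 in nontransgenic hearts. In both groups with males and a female, the female library held the most Hk1, and the male MYBPC3 deletion replicates 1 and 2 held the least of all 12. Hk2 had 286, 296 and 354 CPM in compound hearts, 201, 220.2 and 245 in MYBPC3 deletion hearts, 218, 296 and 323 in HRC variant hearts and 244, 232 and 288 in nontransgenic hearts. The compound Hk2 values all lay above the MYBPC3 deletion values and overlapped the HRC variant and nontransgenic values. As a share of the pair's summed TPM, Hk2 was 41.4%, 45.0% and 46.7% in compound hearts, 38.8%, 41.1% and 37.9% in MYBPC3 deletion hearts, 34.2%, 43.5% and 41.7% in HRC variant hearts and 37.2%, 38.1% and 36.4% in nontransgenic hearts. The compound shares, 44.4% ± 2.68 (SD, n = 3), all lay above the nontransgenic shares, 37.2% ± 0.867, while HRC variant replicate 1 held the lowest share of all.

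Phosphofructokinase, the committed step, came mostly from the muscle subunit Pfkm at 561 TPM, with the liver-type subunit Pfkl at 81.7 and the platelet-type subunit Pfkp at 23.7 TPM. Pfkl (gene 18641; chromosome 10, 77986947 to 78009796) had 152, 150.1 and 156 CPM in compound hearts, 119.5, 131 and 133 in MYBPC3 deletion hearts, 149.6, 156 and 183 in HRC variant hearts and 217, 149.9 and 180.3 in nontransgenic hearts. All 3 MYBPC3 deletion values lay below every value of the other groups, and the compound values were the closest together. Pfkm had 1026, 1041 and 1029.8 CPM in compound hearts, 884, 783 and 869.6 in MYBPC3 deletion hearts, 839, 973 and 1046 in HRC variant hearts and 1129, 860.2 and 908 in nontransgenic hearts. Compound and MYBPC3 deletion hearts did not overlap in Pfkm, and the highest value was in nontransgenic replicate 1. The Pfkm share of the 3 subunits' summed TPM was 85.9%, 85.6% and 85.3% in compound hearts, 86.0%, 84.2% and 84.3% in MYBPC3 deletion hearts, 83.1%, 84.2% and 83.4% in HRC variant hearts and 82.7%, 83.0% and 82.0% in nontransgenic hearts. The nontransgenic shares were the 3 lowest, by a narrow margin against HRC variant replicate 1. Pfkp had 39.2, 48.6 and 41.9 CPM in compound hearts, 41.5, 33.0 and 46.0 in MYBPC3 deletion hearts, 41.1, 54.4 and 52.1 in HRC variant hearts and 44.1, 48.8 and 46.7 in nontransgenic hearts, with all groups overlapping. Pfkp overlaps Pitrm1 on the opposite strand, which had 52.8 to 94.1 CPM, and Pfkm overlaps Senp1 there, which had 15.3 to 20.9 CPM. The sources used here do not give the strand use in counting, so reads of such pairs cannot be told apart. Gpi1, which turns glucose 6-phosphate into fructose 6-phosphate, averaged 681 TPM. Its highest CPM was in nontransgenic replicate 1 (1461), and its highest TPM in nontransgenic replicate 3 (734).

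The bifunctional enzymes that make and remove fructose 2,6-bisphosphate were scarce at the RNA level. Pfkfb1, the gene best known for the liver and muscle forms, averaged 17.5 TPM, and Pfkfb2, the heart form, 16.4 TPM. Pfkfb1 (gene 18639; chromosome X, 150588256 to 150643878) had 25.3, 27.4 and 23.3 CPM in compound hearts, 23.8, 22.4 and 13.2 in MYBPC3 deletion hearts, 8.26, 14.4 and 17.3 in HRC variant hearts and 18.4, 20.6 and 16.4 in nontransgenic hearts. Compound hearts did not overlap HRC variant or nontransgenic hearts, the lowest value was in HRC variant replicate 1, and the female MYBPC3 deletion library stood below both male ones. Pfkfb1 overlaps Apex2 on the opposite strand in the same way, and Apex2 had 4.25 to 10.6 CPM. Pfkfb2 had 55.1, 48.0 and 87.2 CPM in compound hearts, 41.1, 40.5 and 51.7 in MYBPC3 deletion hearts, 50.5, 82.3 and 82.6 in HRC variant hearts and 37.8, 53.1 and 55.3 in nontransgenic hearts, with compound replicate 3 highest and nontransgenic replicate 1 lowest.

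**Figure D1:**
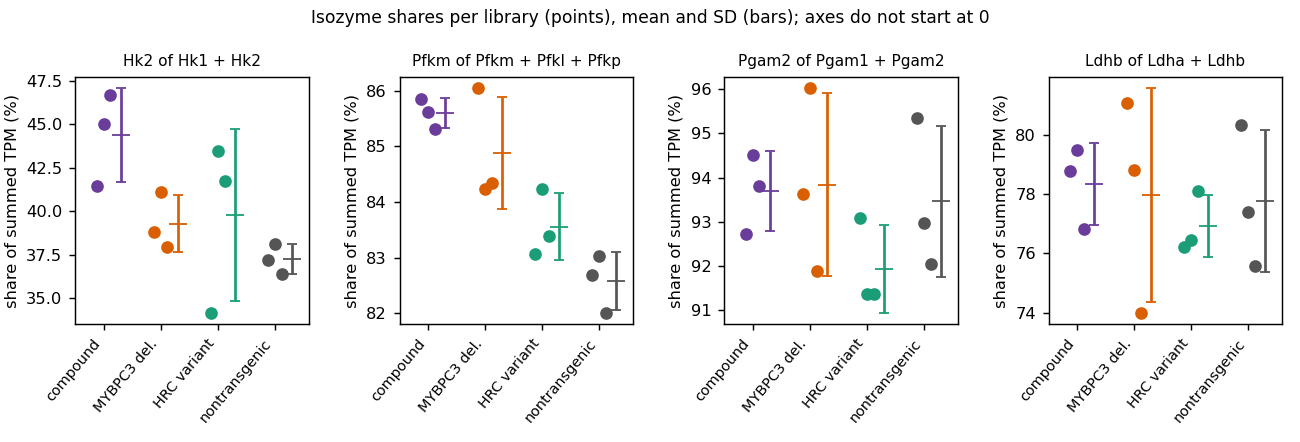
Share of one isozyme in the summed TPM of its family (y axis, percent) for Hk2 of Hk1 and Hk2, Pfkm of the 3 phosphofructokinase subunits, Pgam2 of Pgam1 and Pgam2, and Ldhb of Ldha and Ldhb, in the 4 groups (x axis); points are libraries, bars are mean and SD (n = 3), and the axes do not start at 0. Compound hearts lie highest in Hk2 share on average (44.4%, against 37.2% in nontransgenic hearts), and the Pfkm share is lowest in nontransgenic hearts.

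The stretch from aldolase to pyruvate kinase held the most abundant of the 37 genes. Gapdh reached 10382 TPM and Aldoa, the muscle aldolase, 5409 TPM, followed by the muscle enolase Eno3 (1504 TPM), Pgam2 (1483 TPM), triose phosphate isomerase Tpi1 (877 TPM) and pyruvate kinase Pkm (816 TPM). Phosphoglycerate kinase Pgk1 stood at 348 TPM, the widespread enolase Eno1 at 251 TPM and Pgam1 at 105 TPM. Gapdh had 7708, 7654 and 7295 CPM in compound hearts, 7710.4, 9683 and 6599 in MYBPC3 deletion hearts, 8285, 7305 and 8526 in HRC variant hearts and 12785, 7292 and 7477 in nontransgenic hearts. Nontransgenic replicate 1 and MYBPC3 deletion replicate 2 were the highest, and the other 10 libraries lay between 6599 and 8526 CPM. Aldoa had 4386, 4531 and 4393 CPM in compound hearts, 4233, 5454 and 4053 in MYBPC3 deletion hearts, 4713, 4261 and 5263 in HRC variant hearts and 6853, 4343 and 4669 in nontransgenic hearts, with the same libraries highest. GENCODE names 2 processed copies each for Aldoa, Gapdh, Pgk1, Pgam1 and, of the lactate genes, Ldha, and the sources used here do not say how reads shared with such copies were counted, so these counts are uncertain to that extent.

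Pgam1 (gene 18648; chromosome 19, 41911871 to 41922399), the widespread form of phosphoglycerate mutase, split the libraries by genotype. It had 94.1, 79.9 and 88.9 CPM in compound hearts, 106, 97.6 and 101 in MYBPC3 deletion hearts, 130.4, 124 and 141 in HRC variant hearts and 140.2, 125 and 123 in nontransgenic hearts. In CPM, every library from a mouse with the MYBPC3 deletion lay below every library from a mouse without it. Within the carriers the 3 compound CPM values were the lowest. In the authors' TPM the carriers also lay below, but by little, with 103.66 in MYBPC3 deletion replicate 3 against 104.15 in nontransgenic replicate 1. The lowest TPM of all was in MYBPC3 deletion replicate 2 (75.3), below compound replicate 2 (75.9). The muscle partner Pgam2, which supplied 91.4% to 96.0% of the pair's TPM, had 569, 653 and 638 CPM in compound hearts, 737, 1117 and 544 in MYBPC3 deletion hearts, 834, 624 and 711 in HRC variant hearts and 1371, 783 and 674 in nontransgenic hearts. Pgam2 followed Gapdh, with its 2 highest values in nontransgenic replicate 1 and MYBPC3 deletion replicate 2. Pgk1 had 364, 395 and 392 CPM in compound hearts, 295, 352 and 363 in MYBPC3 deletion hearts, 347, 349 and 389.8 in HRC variant hearts and 421, 404 and 366 in nontransgenic hearts, and all MYBPC3 deletion values lay below all nontransgenic values. Pkm had 1189.7, 1217 and 1195 CPM in compound hearts, 1040.0, 1034 and 1024 in MYBPC3 deletion hearts, 1074, 1184 and 1310.4 in HRC variant hearts and 1530.3, 1049 and 1159 in nontransgenic hearts, where the MYBPC3 deletion libraries were the 3 lowest. Eno1 had 221, 255 and 265 CPM in compound hearts, 234, 308 and 230.1 in MYBPC3 deletion hearts, 279, 201 and 245 in HRC variant hearts and 318, 289 and 275 in nontransgenic hearts, and the nontransgenic values lay above all compound values. Eno3, 83.2% to 88.5% of the enolase pair in TPM, had 1309.7, 1390.3 and 1381 CPM in compound hearts, 1183, 1448 and 1146 in MYBPC3 deletion hearts, 1207, 1136 and 1253 in HRC variant hearts and 2059.6, 1209.6 and 1167 in nontransgenic hearts. The compound Eno3 values lay above all HRC variant values.

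Lactate dehydrogenase came mainly from the heart-type subunit Ldhb (2792 TPM), against 797 TPM for the muscle-type subunit Ldha. Ldhb held 74.0% to 81.1% of the pair and both extremes were MYBPC3 deletion libraries. Ldhb had 2089.8, 2287 and 2035 CPM in compound hearts, 1996, 2298 and 1603 in MYBPC3 deletion hearts, 1824, 1947 and 2370.3 in HRC variant hearts and 3048, 1862 and 1894 in nontransgenic hearts. Ldha had 711, 746 and 777 CPM in compound hearts, 588, 781 and 711 in MYBPC3 deletion hearts, 719, 759 and 838 in HRC variant hearts and 941, 686 and 774 in nontransgenic hearts. In CPM, nontransgenic replicate 1 was highest for both, and the groups overlapped. Slc16a1, the transporter that moves lactate and pyruvate across the cell membrane, averaged 81.6 TPM and ran from 137 to 299.8 CPM, with its lowest value in HRC variant replicate 1 and its highest in compound replicate 3.

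The genes of pyruvate entry and oxidation spanned a wide range. The pyruvate carrier subunits Mpc1 and Mpc2 averaged 1168 and 527 TPM. Of the pyruvate dehydrogenase complex, the E1 subunits Pdhb and Pdha1 stood at 793 and 543 TPM, the E3 enzyme Dld at 240.3, the E2 core Dlat at 196 and the E3-binding protein Pdhx at 94.0 TPM. The kinase Pdk2, which switches the complex off, averaged 597 TPM, its relative Pdk1 57.3 TPM and the phosphatase Pdp1, which switches it on, 18.4 TPM. Pdp1 (gene 381511; chromosome 4, 11955525 to 11966450) had 48.8, 56.8 and 57.4 CPM in compound hearts, 47.2, 36.4 and 46.2 in MYBPC3 deletion hearts, 34.9, 47.2 and 37.2 in HRC variant hearts and 38.9, 48.6 and 46.1 in nontransgenic hearts. All compound CPM values of Pdp1 lay above all others, though the lowest of them exceeded nontransgenic replicate 2 by little. In TPM that lowest compound library (20.4) lay below nontransgenic replicate 2 (20.7) and HRC variant replicate 2 (21.1). Pdhx had 131, 132 and 152 CPM in compound hearts, 123, 117 and 136 in MYBPC3 deletion hearts, 107, 143 and 167 in HRC variant hearts and 173, 150.0 and 146 in nontransgenic hearts, and the MYBPC3 deletion values lay below the nontransgenic ones. Pdk1 had 199, 201 and 202 CPM in compound hearts, 164, 113 and 159 in MYBPC3 deletion hearts, 134, 225 and 207 in HRC variant hearts and 146, 164 and 188 in nontransgenic hearts, with little spread among compound hearts and a wide one among HRC variant hearts. Pdha1 had 988, 1018 and 1087 CPM in compound hearts, 853, 657 and 952 in MYBPC3 deletion hearts, 667, 1029 and 1036 in HRC variant hearts and 764, 899 and 914 in nontransgenic hearts, and compound values exceeded all MYBPC3 deletion and nontransgenic ones. Mpc1, whose counts may include those of a named processed copy, had 535, 656 and 563 CPM in compound hearts, 656, 757 and 506 in MYBPC3 deletion hearts, 529, 576 and 658 in HRC variant hearts and 760.0, 566 and 459.9 in nontransgenic hearts, without a separation of groups.

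Glycogen phosphorylase was expressed from the muscle gene Pygm at 1160.1 TPM and the brain-type gene Pygb at 429 TPM. Pygm accounted for 70.5% to 79.3% of the pair. Pygm had 2106, 2178 and 2035 CPM in compound hearts, 1757, 1927 and 1739.5 in MYBPC3 deletion hearts, 1726, 1881 and 2207 in HRC variant hearts and 2499, 1717 and 1946 in nontransgenic hearts. Pygb had 1168, 1132 and 1099 CPM in compound hearts, 967, 678 and 980.4 in MYBPC3 deletion hearts, 751, 999 and 1045 in HRC variant hearts and 932, 905 and 997 in nontransgenic hearts. Compound hearts held the 3 highest Pygb values, and for Pygm they exceeded the MYBPC3 deletion hearts only. The phosphorylase kinase genes were scarce, with 11.9 TPM for the regulatory subunit Phka1 and 24.3 TPM for the catalytic subunit Phkg1. Phka1 had 42.2, 42.9 and 46.1 CPM in compound hearts, 29.2, 27.6 and 42.4 in MYBPC3 deletion hearts, 31.4, 48.0 and 57.7 in HRC variant hearts and 33.3, 42.4 and 58.6 in nontransgenic hearts. Phkg1, which overlaps Sumf2 on the opposite strand, had 28.0, 28.3 and 27.5 CPM in compound hearts, 28.2, 26.6 and 44.1 in MYBPC3 deletion hearts, 42.8, 37.2 and 21.0 in HRC variant hearts and 29.2, 43.4 and 39.7 in nontransgenic hearts. The compound Phkg1 values were tightly grouped and, in CPM, below all nontransgenic values, while the other 3 groups had a wide spread. Gbe1, the branching enzyme of glycogen synthesis, averaged 34.5 TPM and overlapped between all groups.

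**Figure D2:**
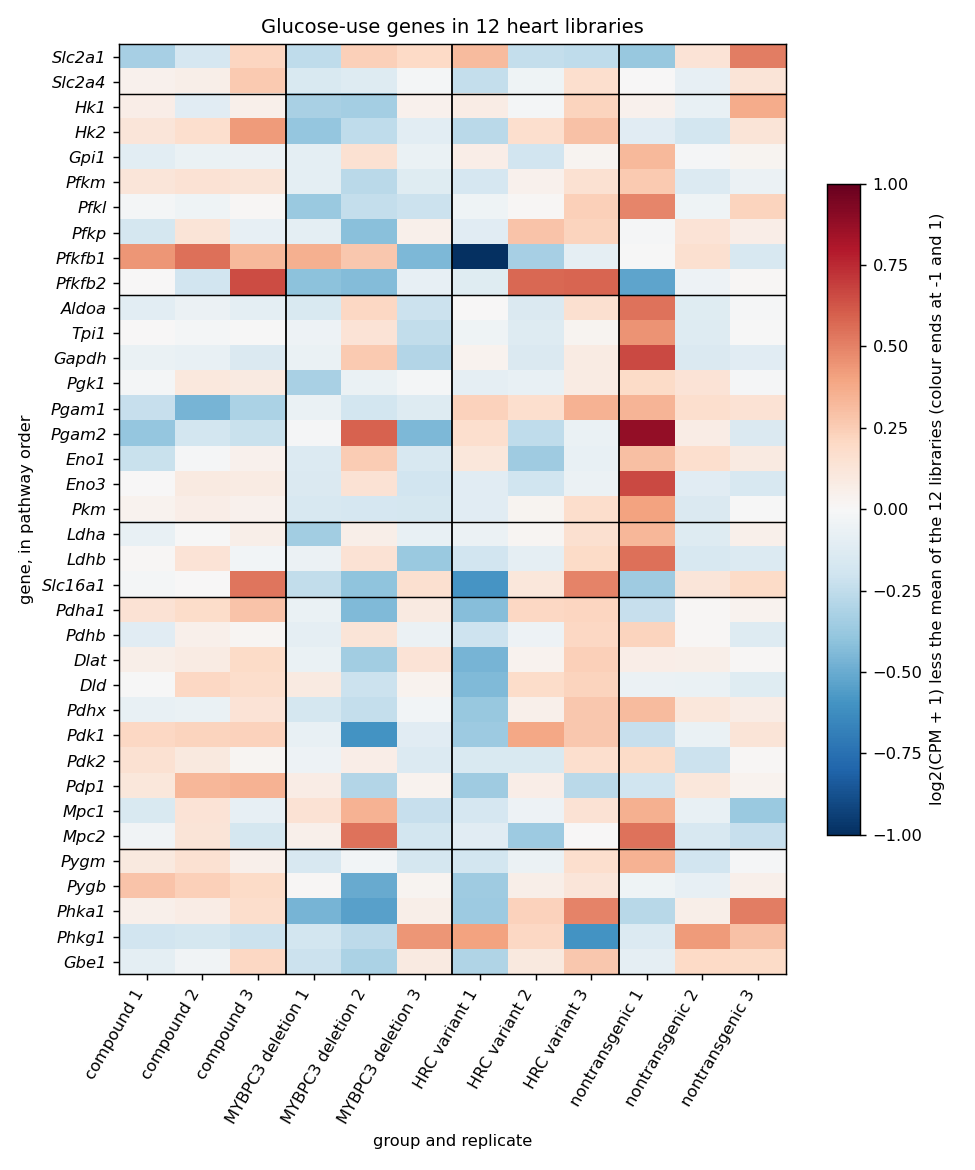
Level of each of the 37 genes (rows, in pathway order) in the 12 libraries (columns, by group and replicate), as log2(CPM + 1) less the mean over the 12 libraries; red is above and blue below that mean. Nontransgenic replicate 1 is red through most of glycolysis and was the highest library for 19 of the 37 genes, and the Pgam1 row is blue in all compound and MYBPC3 deletion columns.

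A single nontransgenic library weighs on all comparisons with that group. In CPM, nontransgenic replicate 1 was the highest of the 12 libraries for 19 of the 37 genes, against 14.1% of all tested genes. The 19 included Gapdh, Aldoa, Tpi1, Pgam2, Eno3, Ldhb and Pygm. In the authors' TPM that library was still highest for Gapdh, Aldoa, Tpi1, Pgam2, Eno3 and Ldhb, but for none of the rest of the 19. Pygm, for example, had 1170 TPM there, against 1303 in HRC variant replicate 3. The scaling factor of nontransgenic replicate 1 was 0.89, the lowest of the 12. Its summed markers were the highest of the 12 for cardiomyocytes (101504 CPM), ventricular muscle (25493), skeletal muscle (5329), red blood cells (7661) and endothelium (1333). The part of these in the levels was not tested. The median of the 37 genes lay 0.19 above their 12-library mean there (log2 scale), while the median of all tested genes lay at -0.01. By CPM, MYBPC3 deletion replicate 2 was the lowest library for 8 of the 37 genes and HRC variant replicate 1 for another 8, against 19.5% and 7.4% of all tested genes.

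The first comparison asks what the homozygous MYBPC3 deletion alone did to these genes. In MYBPC3 deletion hearts 33 of the 37 genes had a fitted log2 difference below 0, against 50.8% of all tested genes, and the median was -0.19, against -0.00 for all genes. All 9 genes from aldolase to pyruvate kinase were on the lower side (median -0.22), as were all 5 glycogen genes (-0.22) and all 3 lactate genes (-0.21). The 10 genes of pyruvate entry and oxidation stood closer to 0, with a median of -0.04 and 7 of them lower. The exceptions above 0 were Pfkfb1 (0.06), Dld (0.06), Mpc1 (0.11) and Mpc2 (0.07). No gene among the 37 passed an adjusted p of 0.05 by edgeR's quasi-likelihood test over all genes (0% of all tested genes passed), nor by DESeq2 (0.595% of genes called) or limma-voom (0%), nor in the authors' deposited table (q under 0.05 in 0.0945% of genes).

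The 6 genes with the smallest p in that comparison were all lower in MYBPC3 deletion hearts. Pfkl averaged 128 ± 7.21 CPM in MYBPC3 deletion hearts and 183 ± 33.8 CPM in nontransgenic hearts (SD, n = 3 each), a fitted log2 difference of -0.51 (SE 0.14), with an unadjusted p of 0.00286 and an adjusted p of 0.359 in edgeR and an adjusted p of 0.0562 in DESeq2. Pgam1 averaged 101 ± 4.02 CPM, against 129 ± 9.57 CPM, a log2 difference of -0.35 (SE 0.11), with an unadjusted p of 0.00813 and an adjusted p of 0.462 in edgeR. Hk1 gave -0.32 (SE 0.12), with an unadjusted p of 0.0146 and an adjusted p of 0.51 in edgeR. The remaining edgeR values were -0.43 (SE 0.18) for Phka1, -0.32 (SE 0.16) for Pdhx and -0.24 (SE 0.13) for Pgk1, with adjusted p-values of 0.579, 0.64 and 0.66. Among females alone, 1 library each of MYBPC3 deletion and nontransgenic hearts, Pdhx gave -0.09 and Pgk1 -0.00. An unadjusted edgeR p under 0.05 was reached by 4 of the 37, Pfkl, Pgam1, Hk1 and Phka1, all lower, against 8.16% of all tested genes in either direction. In CPM, MYBPC3 deletion and nontransgenic libraries did not overlap for 5 genes, Pfkl, Pgk1, Pgam1, Pkm and Pdhx, again all lower. That pattern was found in 5.52% of tested genes, and none of the 37 was higher without overlap, against 4.89%. In the authors' TPM, Pgk1 and Pdhx overlapped between these groups. Pfkl, Pgam1 and Pkm did not, though Pkm cleared by little (783.57 in MYBPC3 deletion replicate 3, against 784.34 in nontransgenic replicate 2). Without nontransgenic replicate 1 the median of the 37 genes was -0.10, and Pfkl gave -0.34. The 7 fibroblast markers, all detected, summed to 2081 to 2293 CPM in MYBPC3 deletion hearts and 1662 to 1857 CPM in nontransgenic hearts. The cardiomyocyte markers summed to 68177 to 79611 CPM in MYBPC3 deletion hearts and 71957 to 101504 CPM in nontransgenic hearts, and the part of either list in these values was not tested.

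**Figure D3:**
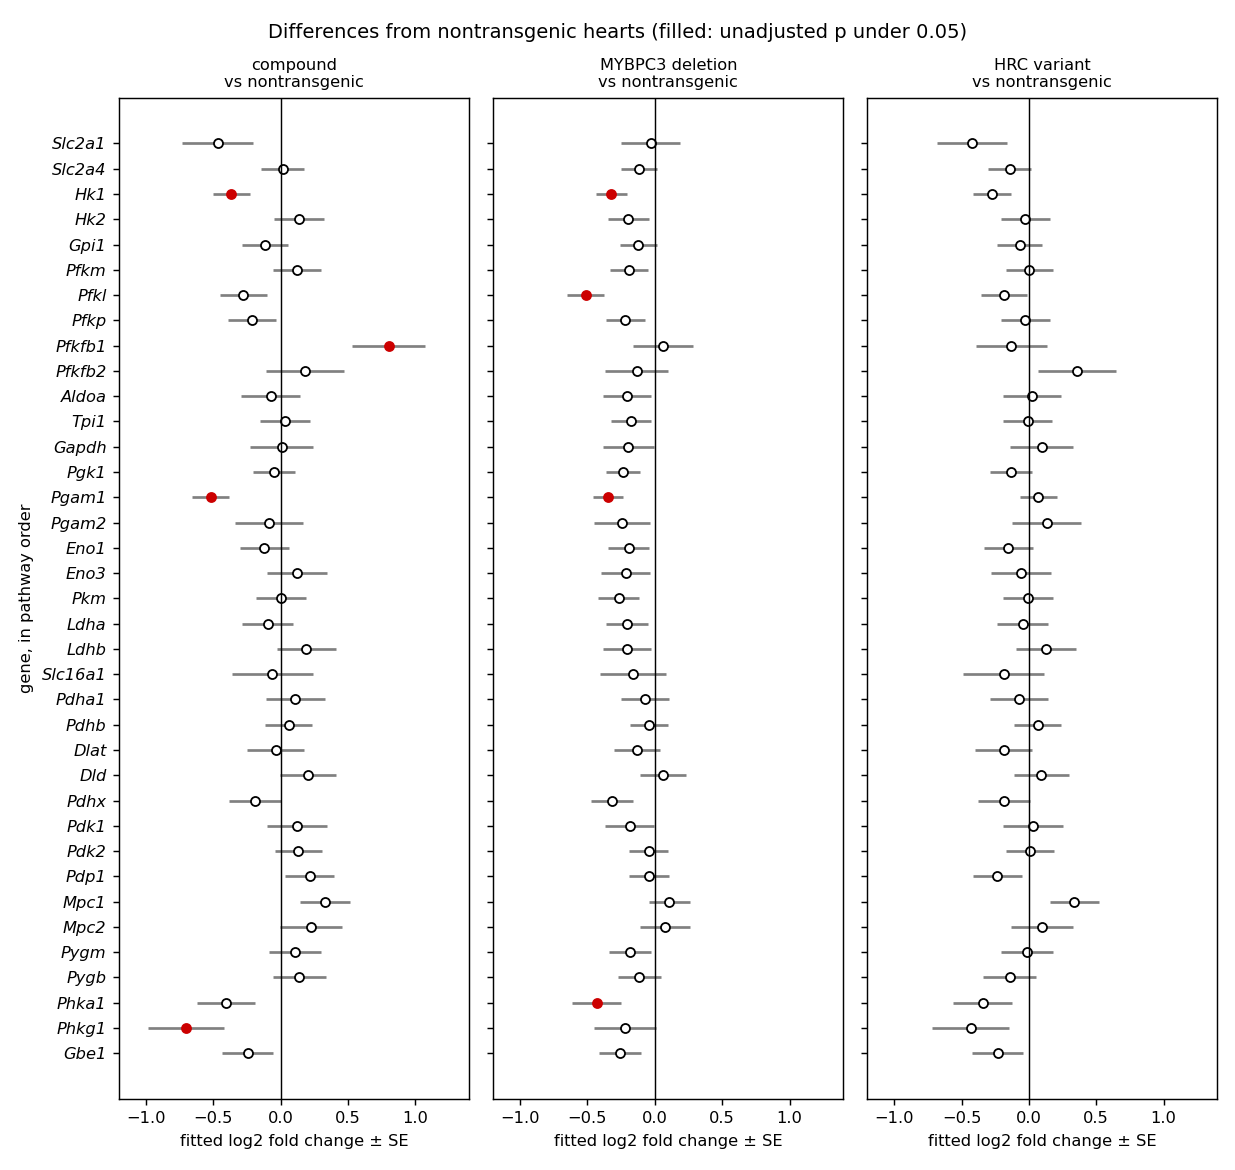
Fitted log2 fold change with its SE (x axis) for each of the 37 genes (y axis, in pathway order) in compound, MYBPC3 deletion and HRC variant hearts, each against nontransgenic hearts; filled points have an unadjusted edgeR p under 0.05 and no point passed after adjustment. In the MYBPC3 deletion panel 33 of 37 points lie left of 0, while the compound panel is spread around 0 with Pfkfb1 at the right (0.80) and Phkg1 (-0.70) and Pgam1 (-0.52) at the left.

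The HRC variant alone was compared with nontransgenic hearts next. On the lower side were 24 of the 37 genes, against 49.3% of all genes, with a median of -0.05, against 0.00 for all genes. Summed atrial markers were 412 to 9540 CPM in HRC variant hearts and 3857 to 9784 CPM in nontransgenic hearts, and with that level as a covariate the median was -0.16 and 33 of the 37 genes were lower. Without HRC variant replicate 3 the median was -0.13, and without HRC variant replicate 1 it was 0.04. None of the 37 had an unadjusted edgeR p under 0.05, while 6.23% of all tested genes did, and none passed after adjustment by edgeR (0% of genes), DESeq2 (0.181%), limma-voom (0%) or in the authors' deposited table (0.0775%). For none of the 37 did the 3 HRC variant libraries clear the 3 nontransgenic libraries, against 4.17% of tested genes higher and 3.76% lower. The smallest p belonged to Hk1, which averaged 291 ± 25.1 CPM in HRC variant hearts and 297 ± 49.2 CPM in nontransgenic hearts, with a log2 difference of -0.27 (SE 0.14), with an unadjusted p of 0.0717 and an adjusted p of 0.83 in edgeR. Next came Mpc1 at 0.34 (SE 0.19), Slc2a1 at -0.42 (SE 0.26), Phka1 at -0.34 (SE 0.22), Phkg1 at -0.43 (SE 0.28) and Pdp1 at -0.24 (SE 0.18), with edgeR adjusted p-values of 0.858 to 0.919. Because all HRC variant mice were female, these values depend on the sex term: without it Hk1 gave -0.03, Mpc1 -0.02, Phka1 0.03, Slc2a1 -0.18 and Phkg1 -0.15.

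Compound hearts were then set against nontransgenic hearts. The set as a whole was balanced, with 17 of 37 genes lower, against 50.3% of all genes, and a median of 0.01, against -0.00. The genes of pyruvate entry and oxidation lay mostly above 0, with 8 of 10 genes higher and a median of 0.13, and the 9 genes from aldolase to pyruvate kinase had a median of -0.05. An unadjusted edgeR p under 0.05 was found for 4 of the 37, against 6.36% of tested genes, namely Pfkfb1 higher and Pgam1, Hk1 and Phkg1 lower. None passed after adjustment by edgeR (0% of genes), limma-voom (0%) or DESeq2 (0.275%). In the authors' deposited table, whose model terms the sources used here do not give, 2.43% of genes had a q under 0.05, and of the 37 only Pgam1 did (log2 -0.56, q = 0.00231).

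Pgam1 averaged 87.6 ± 7.20 CPM in compound hearts and 129 ± 9.57 CPM in nontransgenic hearts (SD, n = 3 each), a fitted fold of 0.697 and a log2 difference of -0.52 (SE 0.14), with an unadjusted p of 0.00199 and an adjusted p of 0.536 in edgeR. Its DESeq2 adjusted p was 0.0538, and among females alone the log2 difference was -0.48. Pfkfb1 averaged 25.3 ± 2.09 CPM in compound hearts and 18.5 ± 2.12 CPM in nontransgenic hearts, with a log2 difference of 0.80 (SE 0.27), with an unadjusted p of 0.0107 and an adjusted p of 0.662 in edgeR. That value was 0.45 without the sex term and 0.26 with the atrial marker level as a covariate. Phkg1 stood at -0.70 (SE 0.28), but at 0.09 with the atrial covariate. Hk1 gave -0.37 (SE 0.14), and -0.12 without the sex term, while Phka1 gave -0.41 (SE 0.22), and -0.04 without the sex term, and Slc2a1 -0.47 (SE 0.26), and -0.04 with the atrial covariate. The libraries did not overlap for 6 genes that were higher in compound hearts, Pfkfb1, Pdha1, Dld, Pdk1, Pdp1 and Pygb, against 8.79% of tested genes. They did not overlap for 5 genes that were lower, Gpi1, Pgam1, Pgam2, Eno1 and Phkg1, against 10% of tested genes. These counts are in CPM. In the authors' TPM, Gpi1, Eno1, Phkg1 and Pdp1 overlapped between these groups, and the other genes named did not. Summed atrial markers were 364 to 707 CPM in compound hearts and 3857 to 9784 CPM in nontransgenic hearts, and with that level as a covariate the median of the 37 genes was -0.20. Summed fibroblast markers were 1346 to 1592 CPM in compound hearts and 1662 to 1857 CPM in nontransgenic hearts, and their part was not tested.

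**Figure D4:**
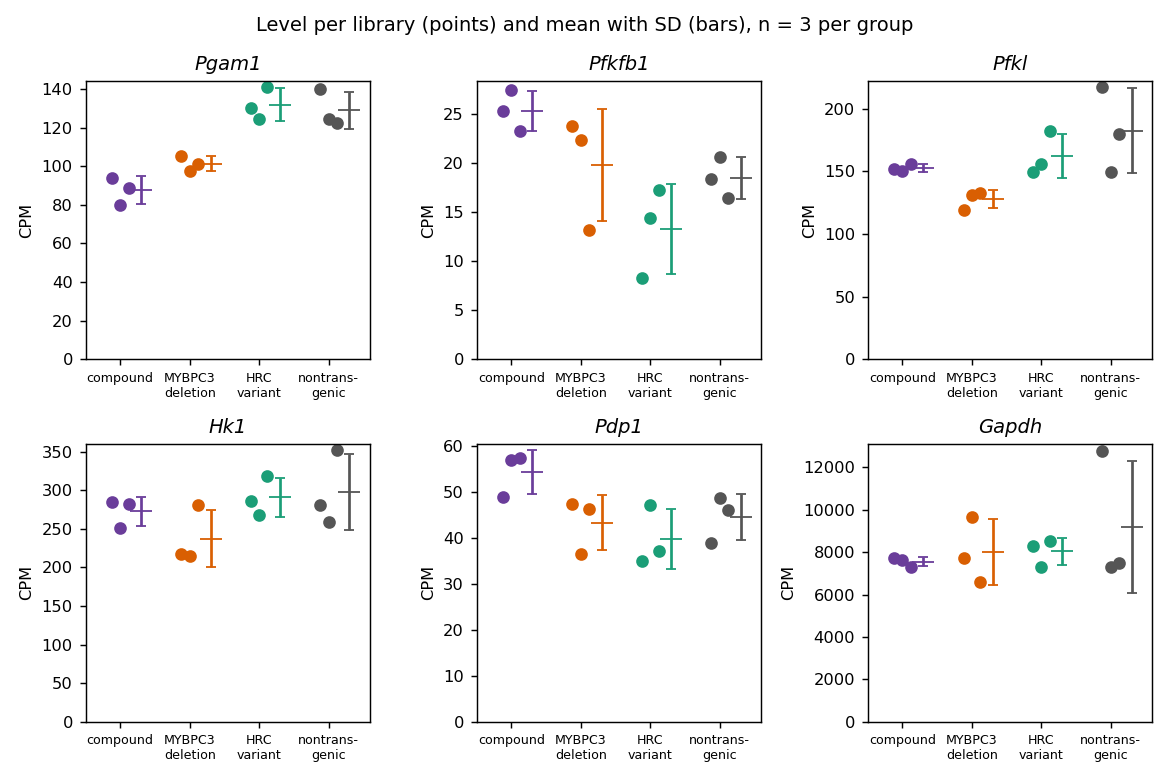
Level in CPM (y axis, from 0) of Pgam1, Pfkfb1, Pfkl, Hk1, Pdp1 and Gapdh in the 4 groups (x axis); points are libraries, bars are mean and SD (n = 3). Pgam1 is lower in all compound and MYBPC3 deletion libraries (79.9 to 106 CPM) than in all HRC variant and nontransgenic libraries (123 to 141 CPM), while Gapdh shows the single high nontransgenic library.

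The comparison of compound hearts with MYBPC3 deletion hearts asks what the HRC variant adds to the deletion. Here 33 of the 37 genes were on the higher side in compound hearts, against 52.2% of all genes, with a median of 0.16, against 0.01. All 10 genes of pyruvate entry and oxidation and all 3 lactate genes were higher by sign, and the genes below 0 were Slc2a1, Hk1, Pgam1 and Phkg1. Some of these signs depend on the sex term, because compound mice were all female and the MYBPC3 deletion group held males. For example, mean CPM was higher in compound hearts for Hk1 (273, against 237) and lower for Mpc1 (585, against 640). In the authors' deposited table the log2 values were 0.22 for Hk1, 0.37 for Pfkfb1 and -0.15 for Slc2a1. This comparison shares its MYBPC3 deletion libraries with the one against nontransgenic hearts, so the mirrored signs are not independent of each other. Only 1 gene had an unadjusted edgeR p under 0.05, Pfkfb1, against 5.73% of tested genes, and none passed after adjustment by edgeR (0% of genes), limma-voom (0%) or DESeq2 (0.0433%). Pfkfb1 averaged 25.3 ± 2.09 CPM in compound hearts and 19.8 ± 5.75 CPM in MYBPC3 deletion hearts, with a log2 difference of 0.74 (SE 0.28), with an unadjusted p of 0.0202 and an adjusted p of 0.862 in edgeR. Without the female MYBPC3 deletion library that difference was 0.38. Hk2 averaged 312 ± 36.7 CPM in compound hearts and 222 ± 22.1 CPM in MYBPC3 deletion hearts, and gave 0.33 (SE 0.19), with an unadjusted p of 0.0972 and an adjusted p of 0.892 in edgeR. The authors' deposited table had a q under 0.05 for 4.24% of genes, and of the 37 only Hk2 did (log2 0.51, q = 0.0128). Ldhb gave 0.40 (SE 0.22), Pfkm 0.31 (SE 0.17), Phkg1 -0.48 (SE 0.27) and Slc2a1 -0.44 (SE 0.27), with edgeR adjusted p-values of 0.892 to 0.911. With the atrial marker level as a covariate Ldhb (-0.03) and Phkg1 (0.27) turned in direction, and Pfkm gave 0.07, Hk2 0.08, Pfkfb1 0.22 and Slc2a1 -0.03. In CPM the libraries did not overlap for 11 genes that were higher in compound hearts, against 11.5% of tested genes. Among these were Slc2a4, Hk2, Pfkm, Pfkl, Pkm and Pygm. On the lower side the same held for Pgam1 alone, against 13.7%. In the authors' TPM, Slc2a4, Pgk1 and Pdha1 of the 11 overlapped between these groups, as did Pgam1. Summed atrial markers were 364 to 707 CPM in compound hearts and 3976 to 6865 CPM in MYBPC3 deletion hearts, and with that level as a covariate the median of the 37 genes was -0.07. Fibroblast markers summed to 1346 to 1592 CPM in compound hearts and 2081 to 2293 CPM in MYBPC3 deletion hearts. The 7 macrophage markers summed to 172 to 183 CPM in compound hearts and 212 to 254 CPM in MYBPC3 deletion hearts, and the 7 markers of smooth muscle and pericytes to 1081 to 1229 CPM in compound hearts and 1313 to 2545 CPM in MYBPC3 deletion hearts. None of these sums overlapped, and their part in the result was not tested.

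Between compound and HRC variant hearts, all from females, the deletion was the added alteration. By sign 20 of 37 genes were higher in compound hearts, against 47.6% of all genes, with a median of 0.03, against -0.01. Single HRC variant libraries set that balance, since the median was 0.15 with 10 genes lower without replicate 3 and -0.06 with 23 genes lower without replicate 1. Pfkfb1 averaged 25.3 ± 2.09 CPM in compound hearts and 13.3 ± 4.60 CPM in HRC variant hearts (SD, n = 3 each), a fitted fold of 1.90 and a log2 difference of 0.93 (SE 0.22), with an unadjusted p of 0.00102 and an adjusted p of 0.514 in edgeR. Pgam1 averaged 87.6 ± 7.20 CPM in compound hearts and 132 ± 8.55 CPM in HRC variant hearts, a fitted fold of 0.664 and a log2 difference of -0.59 (SE 0.11), with an unadjusted p of 0.000141 and an adjusted p of 0.244 in edgeR. DESeq2 called both genes, with an adjusted p of 0.0416 for Pfkfb1 and 0.000899 for Pgam1, where it called 0.311% of genes, while edgeR and limma-voom called 0%. The authors' deposited table gave q = 0.00429 for Pgam1 and q = 0.0548 for Pfkfb1, with 0.389% of genes under 0.05. Apex2, which overlaps Pfkfb1, gave an edgeR log2 difference of 0.56 (SE 0.23) in the same direction.

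Pdp1, the third of the 37 genes with an unadjusted edgeR p under 0.05 in that comparison (6.3% of tested genes), averaged 54.3 ± 4.81 CPM in compound hearts and 39.8 ± 6.53 CPM in HRC variant hearts and gave 0.45 (SE 0.15), with an unadjusted p of 0.01 and an adjusted p of 0.667 in edgeR. Pygb gave 0.28 (SE 0.16), Pfkp -0.19 (SE 0.15) and Slc2a4 0.16 (SE 0.13), with edgeR adjusted p-values of 0.834, 0.911 and 0.927. In CPM, Pfkfb1, Eno3, Pdp1 and Pygb were higher in every compound library than in any HRC variant library, against 6.2% of tested genes. Pgam1 was lower in every one, against 6.21%. In the authors' TPM, only Pdp1 of these genes overlapped between the groups. Atrial markers were scarce in HRC variant replicate 3 as in the compound hearts, and Pgam1 was at 141 CPM there, the highest value of all 12 libraries. That is 1 library, and the part of atrial RNA in the Pgam1 levels was not tested.

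The interaction asks whether the compound difference departs, on the log2 scale, from both single differences added together. It was above 0 for 32 of the 37 genes, against 48.4% of all genes, with a median of 0.25, against -0.01. Pfkfb1 gave 0.87 (SE 0.31), with an unadjusted p of 0.0154 and an adjusted p of 0.563 in edgeR, and Pdp1 gave 0.49 (SE 0.21), with an unadjusted p of 0.0368 and an adjusted p of 0.573. These 2 genes were those with an unadjusted edgeR p under 0.05, against 8.54% of tested genes, and none of the 37 passed after adjustment by edgeR (0% of genes), limma-voom (0%) or DESeq2 (0.864%, where 36 of the 37 had an adjusted p). Pfkl stood at 0.42 (SE 0.20), Pgk1 at 0.32 (SE 0.18), Pygb at 0.40 (SE 0.23) and Hk2 at 0.36 (SE 0.21). For Pfkl the compound value of 153 ± 2.97 CPM lay between 128 ± 7.21 CPM with the deletion alone and 183 ± 33.8 CPM in nontransgenic hearts. Pgam1 was one of 5 genes below 0, at -0.24 (SE 0.16). Without nontransgenic replicate 1 the median interaction was 0.15, and without HRC variant replicate 3 it was 0.37.

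After the Pgam1 values had been seen, the 6 hearts with the MYBPC3 deletion were also compared with the 6 hearts without it, averaged over the HRC genotypes. Of the 37 genes, Pgam1 was in CPM the only one whose carriers all lay below all non-carriers, a pattern found in 0.116% of tested genes (16 of 13849). None of the 37 had all carriers above all non-carriers, against 0.123%. The Pgam1 log2 difference was -0.47 (SE 0.08), with an unadjusted p of 4.66e-05 and an adjusted p of 0.32 in edgeR, which called 0% of genes. DESeq2 gave an adjusted p of 2.68e-05 and called 0.158% of the 8206 genes to which it gave an adjusted p. Leaving out each library in turn kept the Pgam1 difference between -0.50 and -0.44, and the atrial covariate gave -0.49. Since the contrast was chosen on these values, its p-values do not stand as separate support. Pfkl (-0.30, SE 0.10), Hk1 (-0.21, SE 0.08) and Pfkfb1 (0.50, SE 0.16) were the other members with an unadjusted edgeR p under 0.05 in that contrast, against 6.18% of tested genes.

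Other genes of glucose metabolism were counted by list. None of the tested genes in 6 lists passed edgeR in any comparison, and all calls named below are from DESeq2. Among 22 genes of glycogen synthesis and breakdown, 19 were lower by sign in MYBPC3 deletion hearts than in nontransgenic hearts, against 50.8% of all genes (median -0.21, against -0.00), and 3 had an unadjusted edgeR p under 0.05, against 8.16% of all genes. Stbd1, which tethers glycogen to membranes, had 5.47, 5.27 and 7.99 CPM in compound hearts, 13.9, 10.3 and 13.1 in MYBPC3 deletion hearts, 19.7, 11.4 and 9.32 in HRC variant hearts and 13.6, 14.2 and 17.8 in nontransgenic hearts. All compound values of Stbd1 were below all others. The lowest of the others, 9.32 CPM, was in HRC variant replicate 3, where atrial markers were also scarce. The part of atrial RNA in these values was not tested. The log2 difference was -1.43 (SE 0.31) against nontransgenic hearts and -1.11 (SE 0.27) against HRC variant hearts, with DESeq2 adjusted p-values of 0.0274 and 0.0445 and edgeR adjusted p-values of 0.536 and 0.514. DESeq2 called 0.275% of all genes in the first of these comparisons and 0.311% in the second, and 1 of the 22 in each. Gys1, muscle glycogen synthase, gave -0.42 (SE 0.15) in MYBPC3 deletion against nontransgenic hearts (edgeR adjusted p = 0.51). For Gaa, the lysosomal enzyme that degrades glycogen, the interaction was 0.64 (SE 0.18) with a DESeq2 adjusted p of 0.035. DESeq2 called 0.864% of the 5790 genes to which it gave an adjusted p there.

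Of 13 further genes of lactate, pyruvate and its oxidation, DESeq2 called 1, Pdp2, the second pyruvate dehydrogenase phosphatase, in compound against HRC variant hearts (0.311% of all genes called). Pdp2 had 75.4, 63.2 and 55.6 CPM in compound hearts, 43.6, 42.2 and 48.7 in MYBPC3 deletion hearts, 34.8, 44.7 and 42.5 in HRC variant hearts and 41.0, 46.6 and 46.7 in nontransgenic hearts, so that, as for Pdp1, the compound values were the 3 highest. Its log2 difference between compound and HRC variant hearts was 0.67 (SE 0.14), with a DESeq2 adjusted p of 0.00683 and an edgeR adjusted p of 0.321. Pcx, which carboxylates pyruvate, gave -0.68 (SE 0.18) in MYBPC3 deletion against nontransgenic hearts (edgeR adjusted p = 0.357). Among the genes higher in that comparison were Me1 at 0.39 (SE 0.14) and Emb at 1.15 (SE 0.51), with edgeR adjusted p-values of 0.514 and 0.59. By sign 8 of the 13 genes were lower there, against 50.8% of all genes. In the list of 14 genes for glucose transport and its control, Rrad, a small GTPase of muscle, gave 0.48 (SE 0.12) between compound and HRC variant hearts, with a DESeq2 adjusted p of 0.0119, the 1 DESeq2 call of that list. By sign 8 of these 14 genes were lower in MYBPC3 deletion than in nontransgenic hearts. Tbc1d1, which restrains transporter movement to the surface, had 17.0, 15.1 and 15.9 CPM in compound hearts and 32.5, 128 and 84.8 CPM in nontransgenic hearts, a difference of -2.62 (SE 0.75) whose edgeR adjusted p was 0.63. HRC variant replicate 3, at 18.4 CPM, was close to the compound hearts in Tbc1d1.

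Among 17 regulators of glycolytic genes, 12 were lower by sign in MYBPC3 deletion hearts, against 50.8% of all genes, and 15 in HRC variant hearts, against 49.3% of all genes, each set against nontransgenic hearts. DESeq2 called 1 of the 17, Epas1, in MYBPC3 deletion against nontransgenic hearts and in the interaction. It called 0.595% and 0.864% of the genes to which it gave an adjusted p. Epas1, a hypoxia-inducible factor, had 544, 510.0 and 554 CPM in compound hearts, 419.6, 364 and 479 in MYBPC3 deletion hearts, 428, 426 and 495 in HRC variant hearts and 526, 497 and 612 in nontransgenic hearts. Its values were lower in all MYBPC3 deletion and HRC variant hearts than in all nontransgenic hearts, and those of compound hearts overlapped the nontransgenic ones. The log2 difference for the deletion alone was -0.37 (SE 0.12) (DESeq2 adjusted p = 0.0414, edgeR adjusted p = 0.462), and the interaction was 0.63 (SE 0.17) (DESeq2 adjusted p = 0.00539, edgeR adjusted p = 0.508). Mlxip, a glucose-sensing transcription factor, gave -0.54 (SE 0.15) in MYBPC3 deletion against nontransgenic hearts (edgeR adjusted p = 0.384). The other 2 lists, glycolytic isozymes with side branches (14 of 18 genes tested) and the pentose phosphate and polyol branches (12 genes), held no DESeq2 call in any comparison. In the first of them, Adpgk, a glucokinase that uses ADP, gave 0.44 (SE 0.13) in MYBPC3 deletion hearts and 0.51 (SE 0.16) in HRC variant hearts, each against nontransgenic hearts, and Gpd1, which links glycolysis to glycerol, gave -0.84 (SE 0.30) and -0.86 (SE 0.37). The edgeR adjusted p-values of these 4 values ran from 0.43 to 0.767. Pfkfb4, of the same list, gave 0.73 (SE 0.30) in MYBPC3 deletion against nontransgenic hearts (edgeR adjusted p = 0.579). In that comparison 7 of the 14 tested genes of this list were lower by sign, and 9 of the 12 of the pentose phosphate and polyol branches.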

How the data were processed

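Per the labels' protocols, mRNA was enriched from total heart RNA with oligo(dT) beads and sequenced as DNA nanoballs. The authors' deposited table gives estimated counts, TPM, log2 fold changes and DESeq2 q-values per gene. HISAT, Bowtie2, DESeq2 and build GRCm38.p6 are listed in the submitters' processing notes, but the sources used here do not give the counting tool or its use of strand. The 12 deposited FPKM columns were not used. The deposited log2 fold changes are the second named group over the first, and direction was checked against the authors' TPM.

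Estimated counts were rounded (94.3% were whole), and 1 line that names no gene was dropped. The filter kept 13849 of 17379 genes (minimum count 10). edgeR 4.0.16 in R 4.3.3 fitted group and sex over all 12 libraries with TMM scaling and its quasi-likelihood test (7 residual degrees of freedom, biological coefficient of variation 21.5%), with Benjamini-Hochberg adjustment over all tested genes at 0.05. Sex could be estimated in the MYBPC3 deletion and nontransgenic groups only. Genes called higher or lower by sign have not passed a test. DESeq2 1.42.0 and limma-voom (limma 3.58.1) were alternatives, beside other scalings, filters, sample sets, covariates and the omission of each library. Shares of genes called by DESeq2 are of the genes to which it gave an adjusted p, only 5790 for the interaction. The fits were tested on simulated data. Isozyme shares use the authors' TPM, without a test. Rankings of libraries and counts of genes without overlap use CPM, and some of them differ in TPM. Genes named per comparison were the 6 members with the smallest edgeR p. The members and lists were chosen with earlier results of these data known.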

Additional observations from a re-analysis of the deposited data

How the results depend on the processing

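No member passed edgeR under any alternative scaling, filter, covariate or sample set, nor with any library left out. DESeq2 alone called members, namely 2 between compound and HRC variant hearts, Pfkfb1 and Pgam1 (0.93 and -0.59), and Pgam1 between carriers and non-carriers of the deletion, a contrast added after its values were seen. Of 786 values of named members under alternatives, 779 kept their direction and their side of the threshold. Since no member passed edgeR in the main fit, keeping that side says little, and sizes could still move. In compound against nontransgenic hearts, Pfkfb1 ranged from 0.26 to 1.20 over the alternatives and Pgam1 from -0.61 to -0.46. Without the sex term, Mpc1 (-0.019) and Phka1 (0.028) changed sign in HRC variant against nontransgenic hearts. With the atrial marker level as a covariate, Phkg1 changed sign against nontransgenic (0.094) and MYBPC3 deletion hearts (0.27), as did Ldhb against MYBPC3 deletion hearts (-0.034), in compound hearts. That covariate moved the median of the 37 members to -0.16 for HRC variant against nontransgenic hearts, -0.20 for compound against nontransgenic hearts and -0.065 for compound against MYBPC3 deletion hearts. The cause was not tested. Females alone gave a median interaction of 0.14, where each MYBPC3 deletion and nontransgenic group is 1 library assumed to vary like the others.

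Leaving out each library gave medians of -0.21 to -0.10 for MYBPC3 deletion and -0.13 to 0.04 for HRC variant against nontransgenic hearts. For compound hearts they were -0.06 to 0.09 against nontransgenic, 0.13 to 0.23 against MYBPC3 deletion and -0.058 to 0.15 against HRC variant hearts, and the interaction ranged from 0.15 to 0.37. HRC variant replicate 3 set the upper end of the last 2 ranges, nontransgenic replicate 1 the lower end of the interaction. No clear pairing by replicate number was seen. Same-number deviations correlated at -0.24 to 0.32 over 18 pairs, and 13 of 36 library comparisons matched best with their own number. With 3 libraries per group this check cannot settle whether the numbers pair samples. The replicate block left no member called and moved the median for compound against nontransgenic hearts to 0.15.

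From CPM in place of TPM, which ignores transcript length, shares averaged 49.2% for Hk2, 82.5% for Pfkm, 86.8% for Pgam2, 83.4% for Eno3, 73.5% for Ldhb and 67.1% for Pygm. No member had fewer than 167 reads in any library, so counting error is small beside the biological coefficient of variation of 21.5%, and 3 libraries per group limit the precision.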
